A study of Mus musculus with 4 samples.

Results

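The cells described are the activated CD4 T cells of mice whose TH17 cells had lost the TGFβ receptor, set against the same cluster in wild-type mice. They are the 435 of 5080 deposited cells that carry the authors' cluster name Activated and come from TGFβR-KO mice (318 cells) or TGFβR-WT mice (117 cells). The source was the small intestine of C57BL/6 mice aged 7 to 8 months, from which CD4+ T cells positive for YFP were sorted and measured by droplet-based 3′ single-cell RNA-seq. Every group carried *Il17a-cre* and, by the study's methods, a *Rosa26-stop fl/fl-yfp* reporter, so YFP marks cells that have at some time expressed *Il17a*. TGFβR-KO mice also carried floxed *Tgfbr2* alleles, TGFβR-WT controls were littermates without floxed alleles, and TGFβR-CA mice, used here for side values only, carried an active *Tgfbr1* behind a floxed stop cassette. None of these groups received a treatment that the labels or methods name for this experiment. Deletion was therefore limited to cells in which the *Il17a* locus had been active, in mice that had lived with it for months. The *Il17a-cre* allele is a knock-in at *Il17a*, and each sample was a pool of mice.

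TGFβ binds a pair of receptors, TGFβRII (*Tgfbr2*) and TGFβRI (*Tgfbr1*), whose kinase activates SMAD2 and SMAD3. Together with SMAD4 these enter the nucleus and change transcription, including that of genes that damp the pathway itself, such as *Smad7*, *Skil*, *Ski* and *Pmepa1*. In intestinal T cells, TGFβ is known for inducing CD103 (*Itgae*), which binds E-cadherin on epithelial cells, for its part in TH17 differentiation, and for restraining TH1 genes.

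The 4 samples of the series hold 1 TGFβR-KO and 2 TGFβR-WT pools, but the TGFβR-WT cells are deposited together. Their names end in 1 of 2 suffixes, which gave a larger set (709 cells, 88 of them activated) and a smaller set (298 cells, 29 activated). These sets cannot be matched to the 2 labelled samples, so they are not treated as replicates, and no test between conditions was possible. By the methods, TGFβR-KO was sequenced in a first batch with TGFβR-WT and TGFβR-CA in a second batch with TGFβR-WT. Which set belongs to which batch is not given in the sources used here. The smaller set stood apart. *Xist*, the X-inactivation RNA of female cells, was listed at 0 in TGFβR-KO and in the larger set and held 116 corrected UMIs in the smaller set, whereas the Y-linked *Ddx3y* was at 1.32, 1.28 and 0.0814. Barcodes shared between sets numbered 14 for TGFβR-KO with the larger set, 1 between the TGFβR-WT sets and 0 for TGFβR-KO with the smaller set. Of the activated cells, 1 of the larger set shared a barcode.

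Expression is given as a level, which is a gene's share of all corrected UMIs in a set of cells, times 10000. The 318 TGFβR-KO cells held 1223703 corrected UMIs, the larger TGFβR-WT set 321560 and the smaller 122893. Depth per cell was alike, with medians of 3743, 3729 and 4149 corrected UMIs and of 1591, 1680 and 1825 detected genes, which the authors' correction brings to a common depth. A level of 3 UMIs was 0.0245, 0.0933 and 0.244 in the 3 sets, so low values were least certain in the smaller set. Ratios were formed after 0.1 was added to each level. A gene was called higher or lower only when its ratio reached 1.5 against both TGFβR-WT sets, among genes whose mean level over the 3 sets was at least 0.5. The log2 ratios given below carry no error from replicates, and intervals on shares of cells cover counting error only. Cells are not replicates of a genotype, so whether intervals overlap does not test a difference between genotypes.

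The label of the cluster was checked against 7 markers: *Lztfl1*, *Ccr9*, *Cxcr6*, *Ly6a*, *Smco4*, *Il17a* and *Maf*. In TGFβR-KO, activated cells held 4.12 times the level of *Lztfl1*, 4.42 times that of the gut-homing receptor *Ccr9* and 2.63 times that of *Cxcr6*, a receptor of tissue T cells, found in the other cells of the same mice. In the larger TGFβR-WT set these ratios were 10.3, 12.1 and 7.96, and in the smaller 5.19, 5.93 and 3.65. *Lztfl1* and *Ccr9* overlap on opposite strands of chromosome 9, and whether reads were counted by strand is not given in the sources used here. Ratios were smaller for *Ly6a* (1.58 in TGFβR-KO and 2.18 and 1.14 in the TGFβR-WT sets), *Smco4* (1.33, 2.83 and 2.14) and *Maf* (1.85, 2.04 and 1.79). *Il17a* did not mark the cluster in TGFβR-KO. Its ratio of activated to other cells was 0.771 there, against 7.23 in the larger and 4.50 in the smaller TGFβR-WT set. Since clusters were drawn from expression, genes that define the cluster are not independent of which cells were named Activated. The T cell genes *Cd3e*, *Cd3d*, *Cd3g*, *Cd4*, *Trac*, *Trbc1* and *Trbc2* summed to 112 in TGFβR-KO, 115 in the larger and 107 in the smaller TGFβR-WT set, with 0 of 7 called.

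Defining markers of epithelial, B, plasma, CD8 and γδ T cells were at or near 0. Cells had been sorted as CD4+ T cells, and the authors had removed γδ T and epithelial cells. Low levels of those markers were thus set in advance and are no independent check. Summed levels in TGFβR-KO, the larger and the smaller set were 0.466, 0.622 and 0.732 for the 17 epithelial genes in the table, 0.719, 1.06 and 1.06 for the 14 B and plasma cell genes, 0.188, 0.404 and 0.163 for the 8 γδ T cell genes and 0.0572, 0 and 0 for the 2 CD8 genes. Of these, 5 epithelial, 5 B and plasma cell, 5 γδ and 1 CD8 gene were at 0 in all 3 sets, and *Ighm*, the heavy chain of IgM, was called lower at 0.229, 0.653 and 0.895. The 6 myeloid genes summed to 2.33, 3.45 and 3.34, of which *Cst3* alone gave 2.27, 3.33 and 3.17. The 6 genes of regulatory T cells summed to 6.16, 15.5 and 23.5, most of it *Capg*, while *Foxp3*, their defining factor, was at 0.351, 0.529 and 0.895. The part of myeloid and regulatory T cell genes in the results was not tested.

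The cluster took a similar share of cells in each genotype. It held 318 of 2975 TGFβR-KO cells, or 10.7% (exact Clopper-Pearson 95% interval 9.6 to 11.9%), 88 of 709 cells of the larger TGFβR-WT set, or 12.4% (10.1 to 15.1%), and 29 of 298 of the smaller, or 9.73% (6.61 to 13.7%). The intervals overlapped, and the TGFβR-KO share lay between the shares of the TGFβR-WT sets. Without the tumorigenic and CTL clusters in the denominator, the shares were 13.9% (12.5 to 15.4%), 12.6% (10.3 to 15.3%) and 9.93% (6.75 to 14.0%), with TGFβR-KO above both TGFβR-WT sets and the intervals still overlapping.

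The deletion did not show in the level of its target. *Tgfbr2* (chr9:116084293-116175360, minus strand, GRCm38) was at 1.80 in TGFβR-KO, 1.49 in the larger and 1.79 in the smaller TGFβR-WT set. The log2 ratio was 0.25 to the larger set and 0.01 to the smaller. Which exons are floxed, and where the reads of *Tgfbr2* fall relative to them, is not given in the sources used here. This level therefore does not check the deletion, and cells are called TGFβR-KO because the labels say so. *Tgfbr1*, the partner receptor, was at 0.302, 0.466 and 2.44. Between the TGFβR-WT sets the difference was wider than between TGFβR-KO and the larger set.

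Most genes of the TGFβ response and feedback list that reached the minimum level were lower in TGFβR-KO activated cells. Of the 16 listed genes in the table, 7 reached the minimum level. Of these, 6 were called lower, against 5.88% of the 3365 genes tested, and 1 was called higher, against 1.63%. The median log2 ratio of the 7 was −1.30 to the larger set and −2.68 to the smaller, against −0.12 and −0.13 over all genes tested.

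*Pmepa1*, which keeps SMADs from the receptor, was at 0.196 in TGFβR-KO, 1.40 in the larger and 2.52 in the smaller TGFβR-WT set (chr2:173224458-173276533, minus strand). That was 5.06 and 8.86 times lower. A corrected UMI of *Pmepa1* was found in 16 of 318 TGFβR-KO cells, or 5.03% (2.90 to 8.04%), in 30 of 88 cells of the larger set, or 34.1% (24.3 to 45.0%), and in 18 of 29 of the smaller, or 62.1% (42.3 to 79.3%). The interval of TGFβR-KO lay below both others. It covers counting error only, and *Pmepa1* was among the 15 genes with the largest decrease in these same cells.

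Among the SMAD corepressors, *Skil*, which encodes SnoN, was at 0.384, 1.15 and 3.66 in TGFβR-KO, the larger and the smaller set, and its relative *Ski* at 1.05, 1.80 and 1.79. Ratios were 2.58 and 7.77 times lower for *Skil* and 1.66 and 1.65 times lower for *Ski*. Inhibitors that act at the receptor were also lowest in TGFβR-KO. *Smad7*, which recruits ubiquitin ligases to it, was at 0.768, 1.62 and 2.28, and *Ldlrad4*, which like *Pmepa1* holds back SMAD activation, at 0.221, 0.777 and 1.95.

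*Itgae*, the α chain of CD103, was at 0.155 in TGFβR-KO, 0.529 in the larger and 2.12 in the smaller TGFβR-WT set, 2.46 and 8.68 times lower. Its size rests largely on the smaller set. Cells with a corrected UMI made up 3.46% in TGFβR-KO (1.74 to 6.10%), 7.95% in the larger set (3.26 to 15.7%) and 44.8% in the smaller (26.4 to 64.3%), so the intervals of TGFβR-KO and the larger set overlapped and that of the smaller set stood apart. Going the other way, *Id2*, an inhibitor of E-protein transcription factors, was at 22.3, 13.9 and 10.4, which was 1.60 and 2.13 times higher. Among the 4 receptors, ligands and SMADs that reached the minimum level, of 19 in the table, 0 were called. *Tgfb1* was at 1.16, 1.09 and 3.34 and *Smad4* at 0.768, 0.902 and 1.22.

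**Figure D1:**
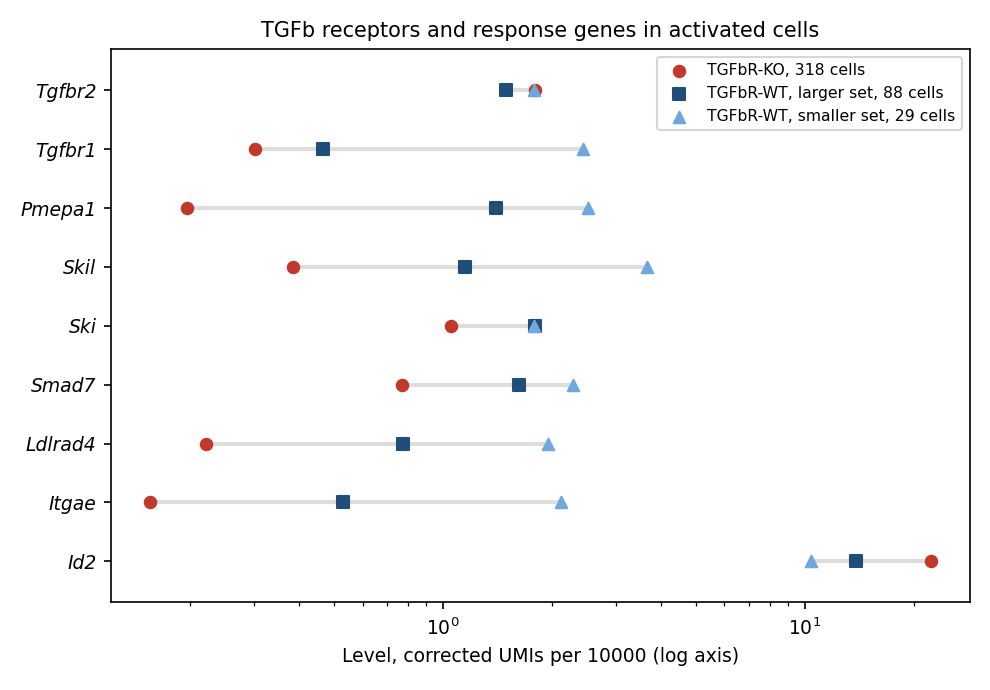
Levels of the TGFβ receptors and of the 7 response and feedback genes that reached the minimum level, in corrected UMIs per 10000 on a log axis, 1 symbol for each set of activated cells and no error bars because there are no replicates. The circles of TGFβR-KO lie left of both TGFβR-WT symbols for 6 response genes, right of both for *Id2*, and beside the smaller set for *Tgfbr2* (1.80 and 1.79).

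Across all genes, calls toward lower levels outnumbered those toward higher ones. Of 3365 genes, 198 (5.88%) were lower and 55 (1.63%) higher in TGFβR-KO than in both TGFβR-WT sets by at least 1.5 times, and at 2 times the counts were 60 (1.78%) and 12 (0.357%). Among the 766 genes with a mean level of at least 2, 46 (6.01%) were lower and 20 (2.61%) higher. Against a single set the counts were far larger, 389 lower and 124 higher against the larger set and 687 lower and 408 higher against the smaller. Between the TGFβR-WT sets, 29.4% of genes differed by 1.5 times. The share of higher calls depended on scaling and on the minimum level. As scaled here, 21.7% of calls were toward higher levels. That share was 42.2% once ratios were centred on their median, and 37.6% when ribosomal protein and mitochondrial genes were left out of the scaling. With no minimum level it was 42.1%, from 352 higher and 485 lower of 11747 genes. The minimum applies to a mean over 1 TGFβR-KO and 2 TGFβR-WT sets. Genes low in TGFβR-KO therefore passed it more readily than genes low in TGFβR-WT. At the threshold, *Klk8* was just inside at 1.51 times higher and *Pik3cd* just outside at 1.49, while toward lower levels *Cyfip1* was just inside at 1.51 and *Gclc* just outside at a ratio that rounds to the threshold.

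**Figure D2:**
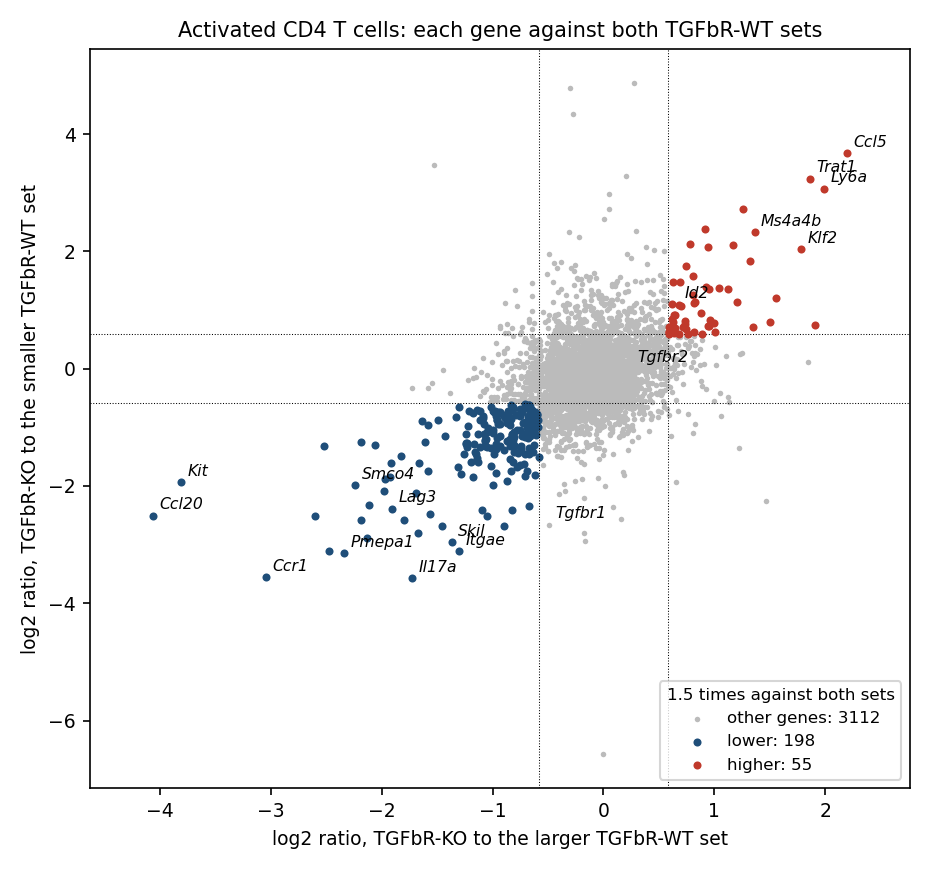
Log2 ratio of each of 3365 genes in TGFβR-KO activated cells to the larger TGFβR-WT set (x axis) and to the smaller set (y axis), 1 point a gene, with dotted lines at 1.5 times. The 198 genes called lower lie at the lower left, with *Ccr1*, *Ccl20* and *Kit* among the farthest, and the 55 called higher at the upper right, with *Ccl5*, *Ly6a* and *Trat1* among the farthest, while *Tgfbr2* lies near the centre and *Xist* alone near −6.58 on the y axis.

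The 15 genes with the largest decrease, ranked by the ratio nearer to 1, began with genes of chemotaxis. *Ccr1*, a receptor for inflammatory CC chemokines, was at 0.0817 in TGFβR-KO (10 corrected UMIs), 1.40 in the larger and 2.03 in the smaller TGFβR-WT set (chr9:123962124-123968692, minus strand). It was 8.25 and 11.7 times lower. *Ccl20*, the ligand of the TH17 receptor CCR6, was at 0.262, 5.94 and 1.95 (chr1:83116766-83119167, plus strand), 16.7 and 5.68 times lower, and *Ccr6* itself, at 2.53, 2.08 and 2.93, was not called. Few TGFβR-KO cells held either transcript. Cells with a UMI of *Ccr1* made up 2.20% in TGFβR-KO (0.889 to 4.48%), 31.8% in the larger set (22.3 to 42.6%) and 37.9% in the smaller (20.7 to 57.7%), and for *Ccl20* the shares were 1.89% (0.695 to 4.06%), 25.0% (16.4 to 35.4%) and 31.0% (15.3 to 50.8%). In GC-TFH cells of TGFβR-KO mice, at a median of 3826 corrected UMIs against 3743 in activated cells, the shares were 1.57% and 0.943%, inside the intervals of the activated TGFβR-KO cells.

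Of the other 13 genes, *Kit*, the receptor tyrosine kinase for stem cell factor, was at 0.523 in TGFβR-KO, 8.61 in the larger and 2.28 in the smaller TGFβR-WT set, 14.0 and 3.82 times lower, and cells with a UMI made up 10.7%, 39.8% and 41.4%. *Nt5e*, which encodes CD73, the enzyme that makes adenosine from AMP, was at 0.752, 3.27 and 3.50, 3.95 and 4.23 times lower. The TGFβR-WT sets were close to each other for *Nt5e*, in level and in the share of cells with a UMI, at 61.4% (50.4 to 71.6%) and 62.1% (42.3 to 79.3%), and TGFβR-KO lay below both at 23% (18.4 to 28.0%).

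*Lag3*, an inhibitory receptor for MHC class II, was at 2.84 in TGFβR-KO, 10.9 in the larger and 15.3 in the smaller TGFβR-WT set (chr6:124904361-124911705, minus strand). It was 3.74 and 5.23 times lower, and found in 34.0% of TGFβR-KO cells (28.8 to 39.5%), 73.9% of the larger set (63.4 to 82.7%) and 72.4% of the smaller (52.8 to 87.3%). *Smco4*, a small membrane protein named by the study for this cluster, was at 3.28, 15.8 and 13.3, which was 4.72 and 3.96 times lower and found in 58.8% of TGFβR-KO cells (53.2 to 64.3%) against 94.3% (87.2 to 98.1%) and 93.1% (77.2 to 99.2%). *Capg*, an actin filament capping protein, was at 3.12, 11.1 and 19.2 in TGFβR-KO, the larger and the smaller set, and was found in 50.9% (45.3 to 56.6%), 92.0% (84.3 to 96.7%) and 100% (88.1 to 100%) of cells. For these 3 genes the TGFβR-KO cells were split between cells with and without a UMI, whereas nearly every TGFβR-WT cell held *Smco4* and *Capg*.

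The other 8 of the 15 were detected at low levels in TGFβR-KO, from 0.0245 for *Sccpdh* (3 corrected UMIs) to 0.458 for *Neb*, which encodes the muscle protein nebulin and was at 2.08 and 1.95 in the TGFβR-WT sets. *Pard6g*, a cell polarity protein, was at 0.147, 1.40 and 1.30. *Prr5l*, a partner of the mTORC2 kinase complex, was at 0.106, 0.840 and 1.14, and *Siglece*, an inhibitory lectin that binds sialic acid, at 0.131, 0.902 and 1.06. For *Ncmap*, *Nipal1* and *Sccpdh* the TGFβR-WT levels lay between 0.591 and 1.06.

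**Figure D3:**
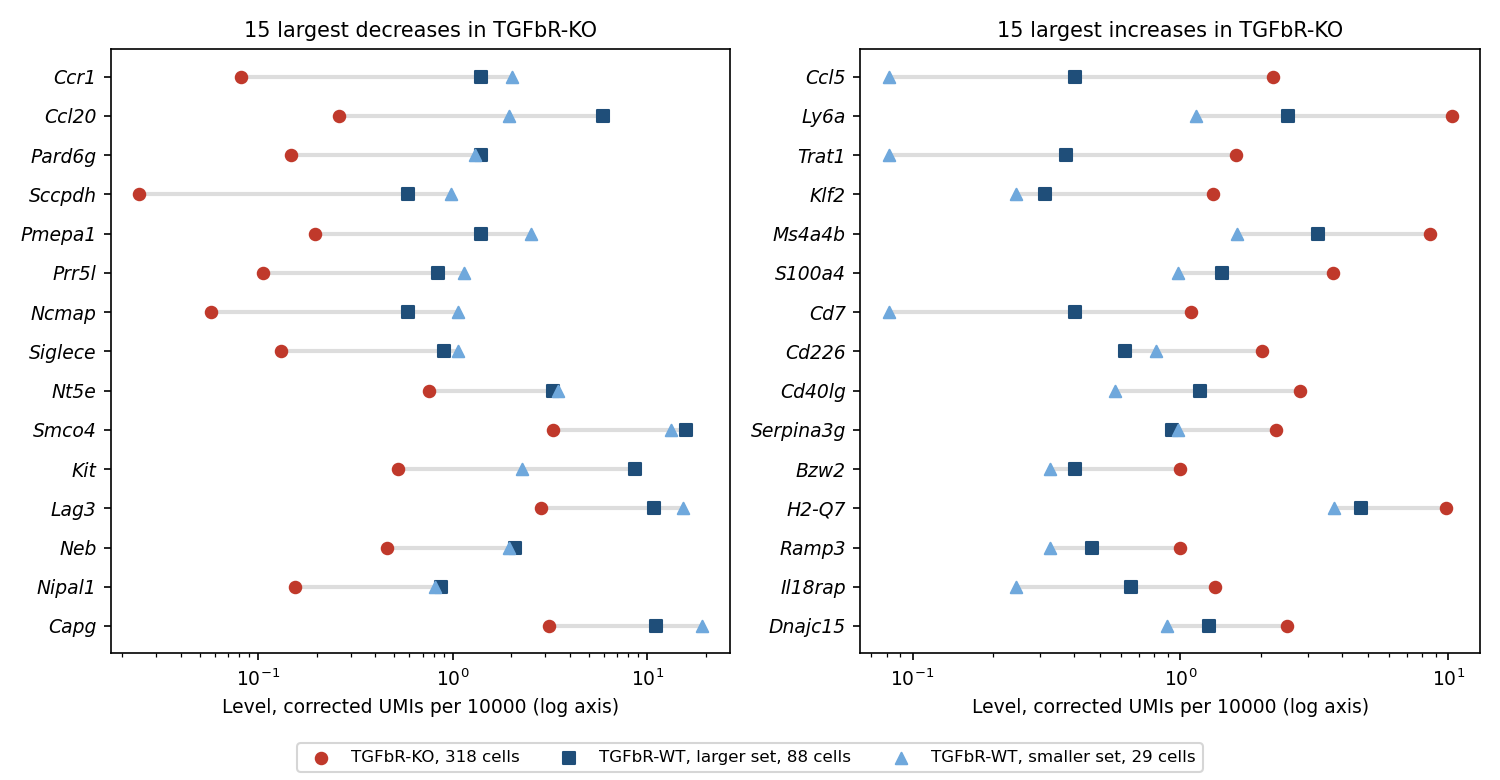
Levels of the 15 genes with the largest decrease (left) and the 15 with the largest increase (right) in TGFβR-KO activated cells, in corrected UMIs per 10000 on log axes, 1 symbol for each set and a bar over their range, without replicate error. By the choice of genes, the TGFβR-KO circle lies outside both TGFβR-WT symbols in each row, and for *Nt5e*, *Pard6g*, *Neb* and *Nipal1* the TGFβR-WT symbols nearly coincide.

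To show the DNA that lies before the start of these genes, upstream sequences were taken from RefSeq (build GRCm38.p6). Of the 15 genes, 11 had an entry, and 7 of these a single start. The letters CAGAC, the short element that SMAD3 and SMAD4 are known to bind, were searched on both strands (CAGAC or GTCTG) in the 250 bases before the start. They were found in 3 of 7 genes (42.9%) against 42.2% of all 32851 promoters in the table, a share near the background. The 3 sequences that hold them, and that of *Ccr1*, which has none in this window, are shown with the matches in capitals, each 5′ to 3′ on the strand of the gene. *Nt5e* lies at chr9:88327359-88327608 on the plus strand, *Siglece* at chr7:43660162-43660411 on the minus strand, *Nipal1* at chr5:72647546-72647795 on the plus strand and *Ccr1* at chr9:123968693-123968942 on the minus strand.
Nt5e: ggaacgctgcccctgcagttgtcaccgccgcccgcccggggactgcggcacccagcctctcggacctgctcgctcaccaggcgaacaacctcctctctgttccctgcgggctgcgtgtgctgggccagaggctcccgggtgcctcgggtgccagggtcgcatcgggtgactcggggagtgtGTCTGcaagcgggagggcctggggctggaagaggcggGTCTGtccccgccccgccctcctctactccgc
Siglece: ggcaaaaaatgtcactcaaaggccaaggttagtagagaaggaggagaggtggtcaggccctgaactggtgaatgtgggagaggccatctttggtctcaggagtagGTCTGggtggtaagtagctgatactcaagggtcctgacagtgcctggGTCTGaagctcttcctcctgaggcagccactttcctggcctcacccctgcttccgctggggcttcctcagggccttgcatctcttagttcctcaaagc
Nipal1: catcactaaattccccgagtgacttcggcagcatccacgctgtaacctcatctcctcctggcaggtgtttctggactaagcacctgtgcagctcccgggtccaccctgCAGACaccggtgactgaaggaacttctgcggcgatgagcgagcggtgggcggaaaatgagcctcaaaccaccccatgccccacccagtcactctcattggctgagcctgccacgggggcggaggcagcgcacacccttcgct
Ccr1: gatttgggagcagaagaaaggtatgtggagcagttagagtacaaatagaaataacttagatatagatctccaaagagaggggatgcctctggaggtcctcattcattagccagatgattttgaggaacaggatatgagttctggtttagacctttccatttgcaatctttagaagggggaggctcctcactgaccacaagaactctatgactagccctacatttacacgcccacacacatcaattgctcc
The matches begin 69 and 32 bases before the start of *Nt5e*, 145 and 98 before that of *Siglece* and 142 before that of *Nipal1*. A match is a run of letters and not a measured binding site.

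Of 18 genes of TH17 identity above the minimum level, 4 were called lower, against 5.88% of all genes tested, and 0 higher, and the list's median log2 ratio was −0.36 to the larger set and 0.12 to the smaller. *Il17a*, the cytokine whose locus drives the reporter, was at 1.5 in TGFβR-KO, 5.19 in the larger and 19.0 in the smaller TGFβR-WT set. Cells with a UMI made up 13.5% (9.96 to 17.8%), 56.8% (45.8 to 67.3%) and 58.6% (38.9 to 76.5%). The TGFβR-WT sets thus held nearly the same share of *Il17a*-positive cells at levels that differed several-fold, and TGFβR-KO lay below both on either measure. In GC-TFH cells, the share with a UMI was 7.86% in TGFβR-KO and 7.09% and 5.17% in the larger and smaller sets.

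*Ahr*, the aryl hydrocarbon receptor that TH17 cells use to sense diet and microbial ligands, was at 0.760, 4.82 and 2.03, 5.72 and 2.48 times lower. *Maf*, a factor of IL-10 and TH17 programs, was at 21.5, 43.5 and 34.0. Its call was lost when ratios were centred (log2 −0.53) or scaled without ribosomal protein and mitochondrial genes (−0.54). The other 14 were not called. Of these, *Stat3* was at 1.63, 1.59 and 1.38, while *Rora*, at 6.24, 8.30 and 5.37, and *Batf*, at 3.52, 3.98 and 2.60, lay between the TGFβR-WT sets. *Il22*, a cytokine that acts on epithelial cells, was at 1.27, 0.902 and 0.570, above both. Just under the minimum level, *Il10*, an anti-inflammatory cytokine that *Maf* is known to drive, was at 0.0654, 0.777 and 0.488, from 8, 25 and 6 corrected UMIs.

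Among TH1 genes, 2 of 13 were called higher, against 1.63% of all genes tested, and 0 lower. *Cxcr3*, the receptor for interferon-induced chemokines, was at 1.06 in TGFβR-KO, 0.311 in the larger and 0.570 in the smaller TGFβR-WT set, 2.83 and 1.74 times higher, a call lost with 0.5 in place of 0.1 added (log2 0.55). *Il18rap*, a chain of the IL-18 receptor, was at 1.35, 0.653 and 0.244, the last from 3 corrected UMIs, and its partner *Il18r1* at 3.51, 2.61 and 2.60 was not called. *Ifng*, the TH1 cytokine, was at 1.99, 1.52 and 1.46, 1.28 and 1.33 times higher and short of a call. Cells with an *Ifng* UMI made up 37.1% in TGFβR-KO (31.8 to 42.7%), 23.9% in the larger set (15.4 to 34.1%) and 24.1% in the smaller (10.3 to 43.5%), and the intervals overlapped. In GC-TFH cells the share was 8.81% in TGFβR-KO and 4.26% in the larger set.

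*Tbx21*, the TH1 master factor T-BET, stayed under the minimum level. It held 29 corrected UMIs in TGFβR-KO, 1 in the larger and 0 in the smaller TGFβR-WT set. Cells with a UMI made up 7.55% in TGFβR-KO (4.90 to 11%), close to the 5.03% of GC-TFH cells in the same mice. The share was 1.14% in the larger set (0.0288 to 6.17%). In the smaller set 0 of 29 cells held a UMI (0 to 11.9%), where 3 cells would make up 10.3%. The interval of TGFβR-KO overlapped those of both TGFβR-WT sets. In all TGFβR-WT activated cells together the share was 0.855% (0.0216 to 4.67%). That pool mixes the sets, and its interval covers counting error only, so it gives no comparison of genotypes. In GC-TFH cells of TGFβR-WT mice the share was 2.84% in the larger set, and 0 of 58 cells held a UMI in the smaller.

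The largest increase was in *Ccl5*, a chemokine of effector T cells. Its level was 2.21 in TGFβR-KO, 0.404 in the larger and 0.0814 in the smaller TGFβR-WT set, from 271, 13 and 1 corrected UMIs (chr11:83525778-83530518, minus strand). It was 4.59 times higher than in the larger set, and no ratio is given to the smaller set's single UMI. Cells with a UMI made up 22% (17.6 to 27.0%), 6.82% (2.54 to 14.3%) and 3.45% (0.0873 to 17.8%), so the TGFβR-KO interval lay above that of the larger set and overlapped that of the smaller, which has 1 positive cell. Of 9 chemokine, cytokine and TNF family genes, *Ccl5* and *Cd40lg* were called higher and *Ccl20* lower, beside 1.63% and 5.88% of all genes tested. *Cd40lg*, through which helper T cells act on B cells, was at 2.79, 1.18 and 0.570.

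*Ly6a*, the interferon-inducible surface protein SCA-1, was at 10.3, 2.52 and 1.14, which was 3.98 and 8.40 times higher (chr15:74994877-74998031, minus strand). Cells with a UMI made up 80.2% in TGFβR-KO (75.4 to 84.4%), 38.6% in the larger set (28.4 to 49.6%) and 20.7% in the smaller (7.99 to 39.7%). The TGFβR-KO interval lay above both others, but *Ly6a* was named for its ratio in these same cells, so this is no independent check. *Ms4a4b*, a membrane protein of activated T cells, was at 8.56, 3.27 and 1.63, and 74.8% (69.7 to 79.5%), 38.6% (28.4 to 49.6%) and 34.5% (17.9 to 54.3%) of cells held a UMI. *S100a4*, a calcium-binding protein of motile cells, was at 3.73, 1.43 and 0.976. For all 3 genes TGFβR-KO was highest and the smaller TGFβR-WT set lowest.

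**Figure D4:**
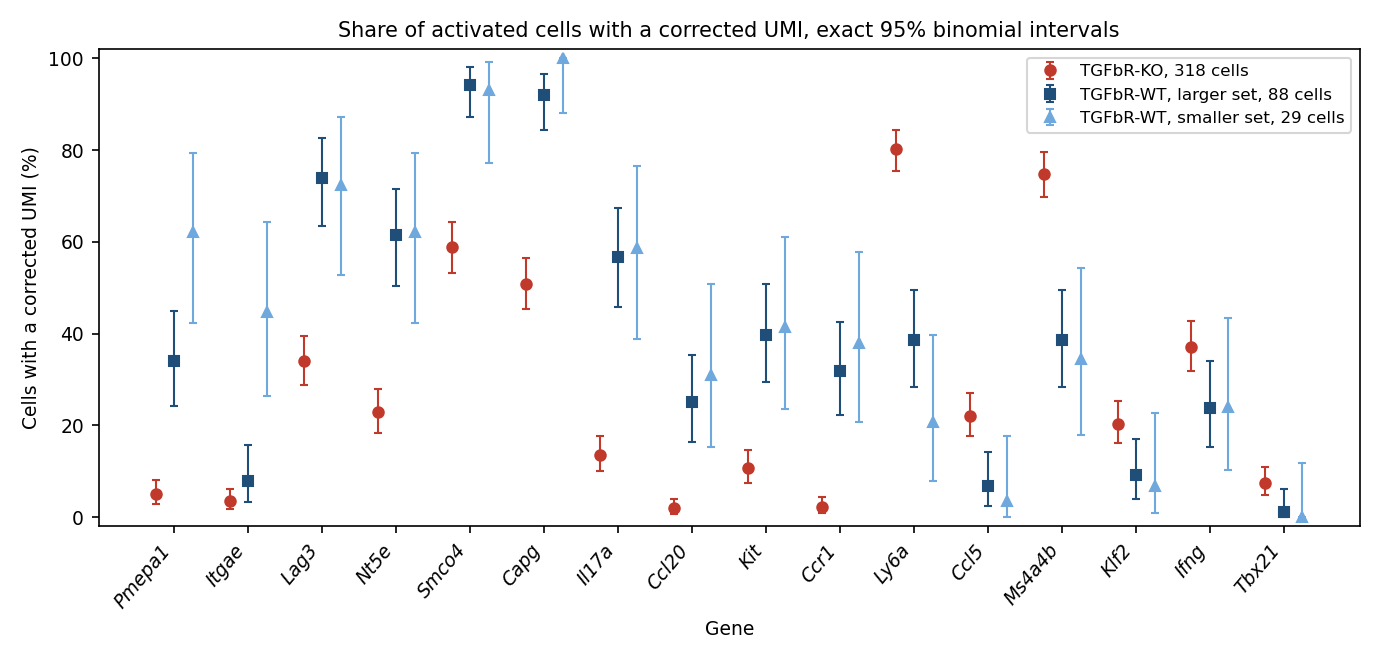
Share of activated cells with at least 1 corrected UMI of 16 genes in TGFβR-KO and both TGFβR-WT sets, in percent, with exact 95% binomial intervals that cover counting error only. Several of the genes were named for large ratios in these same cells, so separate intervals are no independent check for them. The TGFβR-KO share lies below both TGFβR-WT sets for *Pmepa1* (5.03%), *Nt5e* (23%), *Smco4* (58.8%) and *Il17a* (13.5%) and above both for *Ly6a* (80.2%) and *Ms4a4b* (74.8%), with no overlap of intervals, whereas for *Itgae*, *Ifng* and *Tbx21* it overlaps with that of the larger set.

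*Klf2*, the factor that keeps T cells competent to leave tissue, was at 1.32 in TGFβR-KO, 0.311 in the larger and 0.244 in the smaller TGFβR-WT set, from 161, 10 and 3 corrected UMIs. That was 3.44 times higher than in the larger set. Its share of cells, 20.4% (16.1 to 25.3%), overlapped with 9.09% (4.01 to 17.1%) and 6.90% (0.846 to 22.8%), and in GC-TFH cells of TGFβR-KO mice it was 11%. Of 9 genes of egress and central memory above the minimum, *Klf2* was the 1 called higher. Over all genes tested, 1.63% were called higher and 5.88% lower. *Gpr183*, a receptor for oxysterols that guides cells within lymphoid tissue, was the 1 called lower, at 2.37, 4.01 and 3.91, a call lost once ratios were centred (log2 −0.57) or scaled without ribosomal protein and mitochondrial genes (−0.58). *Il7r*, the IL-7 receptor of long-lived T cells, was at 6.30, 4.35 and 2.44 and reached 1.5 against the smaller set alone.

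Of 10 residence and integrin genes, 2 were lower, against 5.88% of all genes tested, and 0 higher. The 2 were *Itgae* and *Rgs1*, a regulator of G protein signalling that dampens chemokine responses, at 4.39, 7.93 and 13. *Cd69*, which retains T cells in tissue, was at 0.654, 1.49 and 0.895 and *Itgb7*, of the gut-homing integrins, at 4.55, 5.10 and 6.84, neither called. Of 7 chemoattractant receptors, 1 was called higher and 1 lower, beside 1.63% and 5.88% of all genes tested. *Cxcr3* was higher and *Cxcr4*, the receptor for CXCL12, lower at 0.319, 0.746 and 1.22. *Ccr9* was at 10.2, 14.2 and 18.7 and *Cxcr6* at 13.1, 11.3 and 7.32, in opposite order over the sets, and neither was called.

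Of 7 inhibitory receptors and exhaustion genes, *Lag3* and *Nt5e* were lower, against 5.88% of all genes tested, and 0 were higher, with median log2 ratios of −0.95 and −0.35. *Ctla4* was at 4.50, 9.49 and 5.78, 2.08 times lower than the larger set but 1.28 times lower than the smaller, and *Pdcd1* was at 0.539, 0.466 and 1.30. *Vsir*, which encodes VISTA, was at 1.31, 1.90 and 1.55.

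Of 10 costimulatory receptors, 1 was called higher and 1 lower, beside 1.63% and 5.88% of all genes tested. *Cd226*, which activates T cells on binding nectin-family ligands, was higher at 2.02, 0.622 and 0.814. *Icos*, the costimulator of follicular and effector helper cells, was lower at 5.09, 9.17 and 9.36. For both genes the TGFβR-WT sets lay close together. *Cd28*, the main costimulator, was at 2.90, 2.55 and 3.82. *Trat1*, an adaptor of the T cell receptor complex, was at 1.62 and 0.373 in TGFβR-KO and the larger set, 3.63 times higher, and held 1 corrected UMI in the smaller. *Cd7*, a surface protein of T and NK cells, also held 1 there and was 2.39 times higher than in the larger set, at 1.10 and 0.404.

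The other genes among the 15 largest increases were at low or middling levels. *Serpina3g*, an inhibitor of cysteine proteases in T cells, was at 2.28, 0.933 and 0.976. *Dnajc15*, a mitochondrial cochaperone, was at 2.51, 1.28 and 0.895, *Ramp3*, a partner of G-protein-coupled peptide receptors, at 0.997, 0.466 and 0.325, and *Bzw2*, a regulator of translation initiation, at 0.997, 0.404 and 0.325. In these 4 genes TGFβR-KO held between 1.90 and 2.62 times the TGFβR-WT levels.

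Most genes of MHC class I presentation were at higher levels in TGFβR-KO than in both TGFβR-WT sets. Of 16 above the minimum level, 13 were above both TGFβR-WT sets and 0 below both, against 695 and 1430 of 3365 genes. The median log2 ratios were 0.41 and 0.48, and they were 0.53 and 0.60 or higher under both other scalings. Of the 16, 4 reached a call, against 1.63% of all genes tested: *H2-Q7* at 9.82, 4.73 and 3.74, *H2-Q6* at 2.27, 1.18 and 1.46, and the immunoproteasome subunits *Psmb8* at 9.07, 4.48 and 5.86 and *Psmb10* at 2.08, 1.15 and 0.814. *H2-Q6* and *H2-Q7* are near-identical neighbours on chromosome 17, so reads may have been split between them, and the call of *H2-Q6* was lost with 0.5 added (log2 0.50). The classical genes *H2-K1*, at 36.7, 26.0 and 25.9, and *H2-D1*, at 30.7, 21.8 and 23.5, were 1.30 to 1.42 times higher, and the light chain *B2m*, at 39.3, 33.6 and 27.6, was 1.17 and 1.42 times higher.

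Of 11 interferon-stimulated genes, 2 were called higher, against 1.63%, and 0 lower, and 9 lay above both TGFβR-WT sets. The calls were *Ly6a* and *Gbp7*, an interferon-induced guanylate-binding protein, at 1.97, 0.964 and 1.06. *Isg15*, a ubiquitin-like protein induced by interferon, was at 1.29, 1.21 and 1.22 and not called. Proteasome subunits as a list held 2 of 33 higher, against 1.63% of all genes tested, the same *Psmb8* and *Psmb10*. The median of the list, −0.09 and −0.11, turned to 0.03 and 0.00 without ribosomal protein and mitochondrial genes in the scaling.

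Ribosomal protein genes took 23.6% of the corrected UMIs of TGFβR-KO activated cells against 17.2% in the larger and 17.1% in the smaller TGFβR-WT set. Of 79 above the minimum, 64 were above both sets, against 695 of 3365 genes tested, and 8 reached a call, against 1.63%, among them *Rps19* at 29.8, 16.1 and 15.5, *Rps24* at 78.2, 50.3 and 50.9, *Rpl12* at 39.1, 24.0 and 18.5 and *Rps21* at 42.2, 24.5 and 9.60. Median log2 ratios were 0.47 and 0.41 and stayed positive under both other scalings, at 0.53 to 0.60. These genes have many processed copies in the genome, and how the authors' counting treated reads shared with them is not given in the sources used here. The share was also higher in TGFβR-KO in TR-TFH cells, at 33.6% against 27.6% and 24.5%, and in GC-TFH cells, at 25.7% against 22.2% and 20.8%, while in cycling cells it was 21.9% against 25.8% and 19.3%.

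Lists of genes of cell upkeep are given beside the shares over all genes tested, 5.88% lower and 1.63% higher. No list was tested against these shares. Of 10 glycolysis genes and 10 heat shock genes, 0 were called in either direction, with *Gapdh* at 8.49, 10.0 and 13.3 and *Hspa8* at 4.61, 4.04 and 16.5, the last apart from both others. Of 76 nuclear-encoded respiratory chain genes, *Cycs* (cytochrome c) and *Ndufa1* (a complex I subunit) were lower and 0 higher. Of 21 actin cytoskeleton genes, *Capg* was lower and 0 were higher, with *Actb* at 107, 108 and 108. Of 7 cell cycle genes, the replication helicase subunit *Mcm6* was lower, at 0.776, 1.65 and 1.71. Of 6 genes of the mitochondrial genome, *mt-Nd3* was lower, at 2.34, 4.17 and 5.37, and the median mitochondrial share of cells was 0.955%, 0.980% and 0.852%.

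Genes of T cell receptor signalling showed no common direction. Calls in this and the following lists stand beside 1.63% higher and 5.88% lower over all genes tested. Of 18 immediate early genes, *Nfkbiz*, a regulator of NF-κB targets, was higher at 0.793, 0.435 and 0.407, a call lost with 0.5 added (log2 0.47), and *Jun*, an AP-1 subunit, was lower at 6.27, 9.45 and 18, a call at the threshold that both other scalings removed. *Fos*, the partner of *Jun*, was at 2.69, 4.85 and 1.63 and *Egr1* at 2.21, 3.17 and 0.651, each between the TGFβR-WT sets. Of 14 interleukin and interferon receptor chains, *Il18rap* was higher and 0 lower, and *Il2ra*, the high-affinity IL-2 receptor chain, at 0.629, 2.08 and 0.814, was 2.99 and 1.25 times lower. Of 6 cytotoxic granule genes 0 were called: *Gzma* was at 1.90, 5.69 and 0.0814 and *Gzmb* at 1.68, 4.76 and 1.71, so that for *Gzma* the TGFβR-KO level lay between those of the TGFβR-WT sets. Of 12 S100, annexin and galectin genes, *S100a4* was higher and 0 lower.

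**Figure D5:**
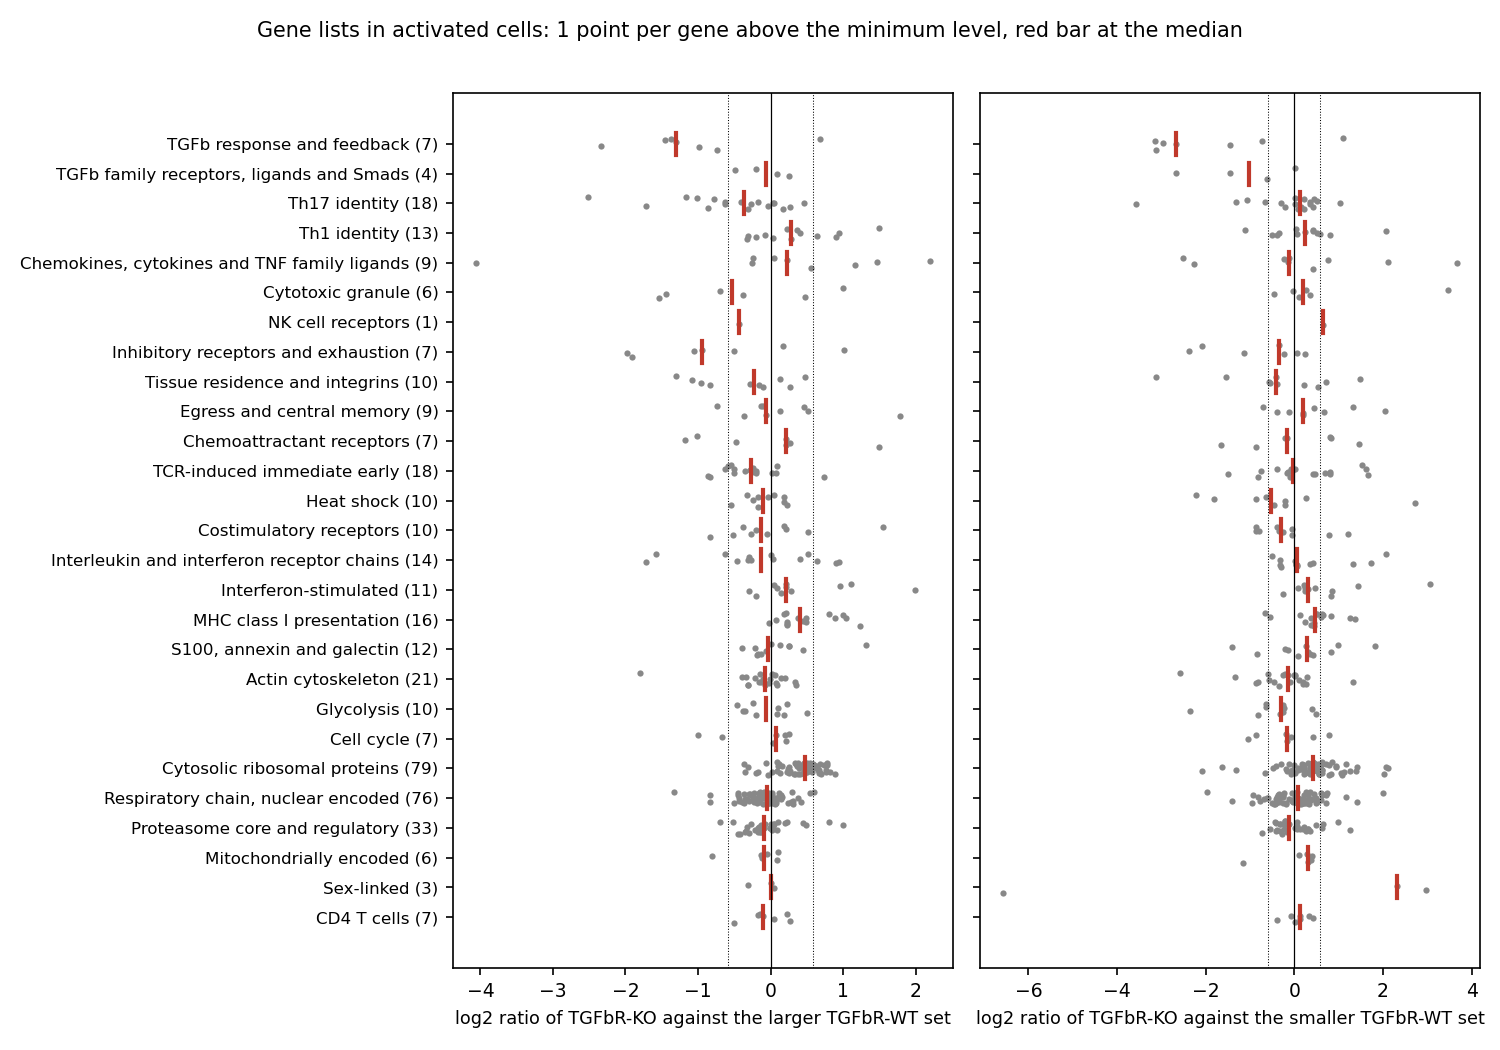
Log2 ratio of TGFβR-KO activated cells to the larger (left) and the smaller TGFβR-WT set (right) for each listed gene above the minimum level, 1 point a gene, 1 row a list with its number of genes, the red bar at the median and dotted lines at 1.5 times. TGFβ response genes have medians of −1.30 and −2.68, MHC class I genes 0.41 and 0.48 and ribosomal protein genes 0.47 and 0.41, and the spread is wider against the smaller set.

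Levels of the leading genes were also taken in TR-TFH cells of the same mice, and the difference between the clusters was not tested. There, *Nt5e* was at 0.617 in TGFβR-KO, 2.43 in the larger and 2.15 in the smaller TGFβR-WT set, *Pmepa1* at 0.145, 0.499 and 0.991, *Ly6a* at 4.81, 0.615 and 1.22 and *Ms4a4b* at 11.4, 6.14 and 4.34. *Lag3* was at 0.7, 2.91 and 3.57 there and *Smco4* at 2.95, 4.95 and 5.78. These genes had the same order of TGFβR-KO against both sets as in activated cells. *Il17a* was near 0 in TR-TFH cells, at 0.0519, 0.0713 and 0.0561, as was *Kit*, at 0.0311, 0.196 and 0.150. *Cd40lg*, called higher in activated cells, was at 3.16, 2.79 and 3.25 in TR-TFH cells. In pre-tumorigenic cells, with 27 cells in the larger set, TGFβR-KO was below both sets for *Nt5e* (0.494, 0.878 and 1.34) and *Smco4* (2.41, 3.73 and 6.44). It lay between the sets there for *Il17a* (8.61, 6.81 and 20.1) and *Lag3* (0.448, 0.439 and 2.48).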

How the data were processed

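Reads were aligned to mm10 and counted by the authors with Cell Ranger 3.1.0. Cells with 1000 to 5000 detected genes and under 10% mitochondrial UMIs were kept, normalized with SCTransform, integrated and clustered in Seurat, and γδ T and epithelial cells removed. The authors deposited, for each cell, its condition, its cluster name and the natural log of its corrected UMIs plus 1. Count models need raw counts and were not used. With 1 TGFβR-KO sample and TGFβR-WT cells that the labels do not assign to their 2 samples, no test was made.

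Cell names begin with the condition, and those beginning with R alone were taken as TGFβR-KO. The log was undone in Python 3.11.15 (numpy 2.4.6, pandas 2.3.3), and UMIs were summed per set. Shares have exact intervals (scipy 1.17.1). Figures used matplotlib 3.10.9. Doublets were not called. Instead, the 5% of cells with most detected genes were left out as an alternative. The steps were tested on simulated data. Genes named are the targeted genes, those the study names for the cluster, the 15 largest increases and decreases, and up to 4 members per list with the ratio farthest from 1. Further members given for context were chosen after their values were seen, and the genes and lists were chosen with earlier results of these data known. Coordinates come from GENCODE M21 (GRCm38), matched by symbol. The report gives the alternatives that change a call, and the rest are listed in the closing section. Some members of the lists enter the counts but are not reported here by name.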

Additional observations from a re-analysis of the deposited data

How the results depend on the processing

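No paired analysis was possible because no source ties a TGFβR-WT cell to its sample and the only comparison has no test. The 55 higher and 198 lower genes became 32 and 91 with 0.5 added to each level, 127 and 355 against the pooled TGFβR-WT cells, 120 and 199 when scaled without ribosomal protein and mitochondrial genes, 98 and 134 with centred ratios, 12 and 60 at 2 times, 33 and 96 at a mean level of 1, 352 and 485 with no filter, and 20 and 46 at a mean level of 2, an alternative chosen after seeing the data. Leaving out each TGFβR-WT set in turn gave 122 to 355 higher and 380 to 729 lower genes, the higher count of each pair without the larger set. The cause was not tested. The minimum level was applied anew in each alternative, so the number of genes tested changed. It was 4047 without ribosomal protein and mitochondrial genes in the scaling, 1736 at a mean level of 1 and 11747 with no filter. In the first of these, all 55 higher calls and 155 of the 198 lower calls were kept. Weighting cells equally gave 56 and 201, and leaving out cells with a shared barcode, with over 5% mitochondrial UMIs or with most detected genes gave 53 to 56 and 198 to 207. The *Tgfbr2* log2 ratio ranged from 0.01 to 0.25 over the leave-one-out settings, 0.25 without the smaller set. The TGFβR-KO share of activated cells was 13.9% without tumorigenic and CTL cells in the denominator, and that of all TGFβR-WT cells 11.8%. Of 57 named genes past 1.5 times, 52 stayed past it with 0.5 added. With centred ratios 53 did, as did 53 without ribosomal protein and mitochondrial genes, and 0 changed direction. Genes were named largely for ratios far from 1, so these counts do not speak for the other calls. Scaling without ribosomal protein and mitochondrial genes moved the median log2 ratio of all genes tested from −0.121 and −0.132 to −0.016 and −0.022. The 29 cells of the smaller set limit every low level.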

Other observations

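Several genes outside the lists were also called lower at levels of 2 or more in the TGFβR-WT sets. They were chosen after their values were seen. *Rgs10*, a regulator of G protein signalling, was at 2.22 in TGFβR-KO and at 5.16 and 8.22 in the larger and smaller sets, the lysosomal protease *Ctsb* at 3.83, 7.74 and 8.30, and *Ptms*, which encodes parathymosin, at 2.12, 6.69 and 5.21. *Abi3*, an adaptor of actin regulators, was at 0.646, 2.27 and 5.13 and *Gngt2*, a G protein γ subunit, at 0.654, 2.33 and 3.17. These 2 genes overlap on chromosome 11, so their reads may not be separable. At low levels, *Msmo1* was at 0.392, 1.12 and 1.46, *Cyp51* at 0.417, 0.902 and 0.895 and *Hmgcs1* at 0.302, 0.684 and 0.814. These 3 genes encode enzymes of sterol synthesis, and no list of such genes was fixed. Toward higher levels, *Cd48*, an adhesion molecule, was at 4.62, 2.74 and 2.69, *Gimap4*, a lymphocyte GTPase, at 5.65, 3.33 and 3.50, and *Dtx1*, a Notch pathway ubiquitin ligase, at 4.76, 2.43 and 2.85.

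In the 130 activated cells of TGFβR-CA mice, a single sample of another batch, *Smco4* was at 14.4, *Lag3* at 10.7, *Capg* at 12.1, *Nt5e* at 3.70, *Kit* at 7.66, *Pmepa1* at 1.82 and *Il17a* at 11.5. *Ly6a* was at 1.11, *Ms4a4b* at 1.35, *S100a4* at 0.545 and *Klf2* at 0.0751, and *Ccl5* was listed at 0. *Rps21* was at 11.6 there and *Xist* at 4.58. These values were not compared further.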
